A study of Mus musculus with 2 samples.

Results

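CA3 pyramidal neurons of the aged mouse hippocampus are described here from 2 single-cell libraries, in which 234 of 31097 cells met the criteria for this class. The control library gave 130 CA3 cells of 15912 and the tomatidine library 104 of 15185. A cell with at least 2000 unique molecular identifiers (UMIs, each standing for 1 captured molecule) was kept if it held at least 2 UMIs of Iyd, at least 4 UMIs of Iyd and Homer3 together, and at least 1.5 UMIs of that pair per 10000 UMIs of the cell. It also needed at least 5 UMIs of Slc17a7, more than its UMIs of Gad1 and Gad2 and more than those of Slc17a6, and more Iyd and Homer3 than the sum of the CA1 genes Fibcd1, Spink8 and Lefty1 and than that of the dentate granule genes C1ql2, Dsp, Tdo2 and Lct. The cells were therefore chosen by measured values of 13 gate genes, and the levels of those genes are given as a description only.

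Both libraries came from flash-frozen, dissociated hippocampus of C57BL/6 mice that were 21 months old when treatment began, and were read out with a set of gene-specific probes on fixed RNA, so that levels are compared here between cells and never between genes. The control mice were kept on standard chow and the tomatidine mice on a diet with 0.05% tomatidine, a steroidal alkaloid of tomato, in both cases for 3 months. Each library pooled 4 mice, so a group was 1 sample, and the totals over all cells were 279525565 and 259059908 UMIs. No test between groups was possible, mice could not be separated, and the intervals given for a library cover counting error only. The sex of the pooled mice was not given in the labels. Y-linked RNA (Ddx3y, Uty, Kdm5d, Eif2s3y) was present in nearly every CA3 cell of both libraries: 2 control and 9 tomatidine cells had none, with median depths of 15181.5 and 7926 UMIs.

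CA3 pyramidal neurons are excitatory cells that receive the mossy fibres of dentate granule neurons on large thorny spines, excite each other through recurrent collaterals, and project to CA1 through the Schaffer collaterals. This circuit is known for the rapid storage and completion of memories, and for its readiness to fire in bursts. The study stained CA3 neurons for the RNA of Cdkn1a and Cdkn2a, which encode the cell cycle inhibitors p21 and p16 used as markers of senescence, and counted damaged telomeres in them.

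CA3 cells, as gated, were rare and deep. They made up 0.930% of the control cells with 2000 or more UMIs (95% exact binomial interval 0.778 to 1.10) and 0.776% of the tomatidine cells (0.634 to 0.939). The ratio of the shares, tomatidine over control, was -0.26 on the log2 scale, with an interval of -0.65 to 0.12 that includes no difference. A CA3 cell held a median of 88864.5 UMIs in the control library (range 6697 to 309821) and 70839.5 in the tomatidine library (5246 to 436370). CA1 pyramidal neurons (947 and 781 cells) and dentate granule neurons (3085 and 2423 cells) were chosen by their own gate genes. The thresholds on summed gate UMIs were the same, but no single gene had a minimum, as Iyd had for CA3. CA1 neurons held medians of 31289 and 20887 UMIs, and dentate granule neurons 15491 and 14063. CA3 cells were the deepest of these 3 classes in both libraries, and the gates, which asked for set numbers of UMIs, favoured deep cells. Cells failing only the Iyd minimum were shallower, with medians of 25840 and 21471.5 UMIs at 1 UMI of Iyd, 16248 and 20744 at none. How much of the depth and rarity of CA3 cells this minimum set was not tested.

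Most CA3 cells lay outside the cell filters stated in the study's methods. More than 6000 genes were detected in 110 of the 130 control cells (84.6%) and in 83 of the 104 tomatidine cells (79.8%). The shares were 65.5% and 57.7% in CA1 and 38.3% and 35.2% in dentate granule neurons. The complexity of a cell (log10 of its genes over log10 of its UMIs) was at most 0.8 in 68 control CA3 cells (52.3%) and 44 tomatidine cells (42.3%). The shares were 13.1% and 9.22% in CA1 and 1.36% and 1.28% in dentate granule neurons. Cells that passed both limits numbered 20 (15.4%) and 21 (20.2%). No CA3 cell of the control library and 2 of the tomatidine library were among the 2% of cells with the highest doublet scores, and no barcode was a CA3 cell in both libraries, which shared 292 barcodes.

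**Figure D1:**
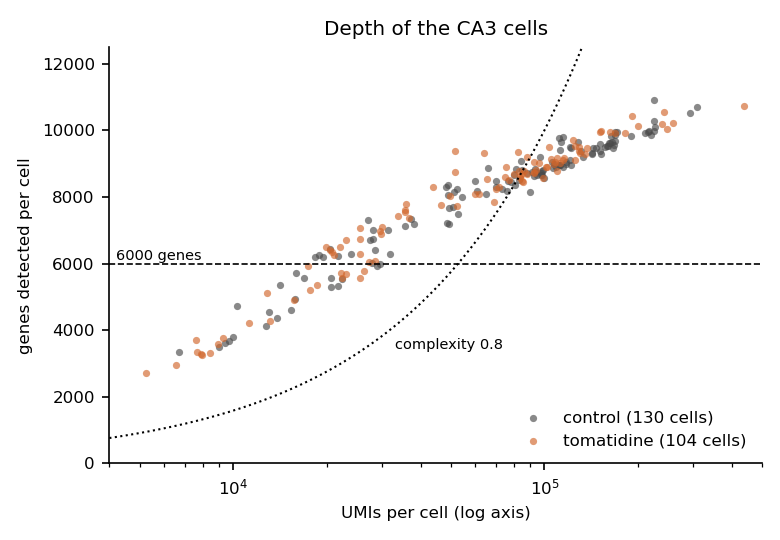
Genes detected (vertical axis) against UMIs (horizontal log axis) in each CA3 cell, grey for the 130 control and orange for the 104 tomatidine cells. The dashed line marks 6000 genes and the dotted line a complexity of 0.8; 110 control and 83 tomatidine cells lie above the dashed line.

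The label was checked against 14 CA3 markers that the gate did not use, and each of them stood higher in CA3 cells than in both other classes in both libraries. In each pair of values that follows, the control library is given first and the tomatidine library second, in counts per 1000000 UMIs of the class (CPM). Nectin3 (ENSMUSG00000022656, mm10 chromosome 16, 46387706 to 46498525), an adhesion protein of the mossy fibre contact, stood at 452 and 421 in CA3, 44.3 and 43.7 in CA1, and 15.8 and 17.8 in dentate granule neurons. Bok (ENSMUSG00000026278, chromosome 1, 93685660 to 93695764), a Bcl-2 family protein, stood at 399 and 393 in CA3, 34.4 and 34.1 in CA1, and 28.4 and 31.9 in dentate granule neurons. Neither gene's CA3 values came near those of the other classes. With edgeR over all genes, 11 of the 14 markers were called higher than in CA1 and 14 higher than in dentate granule neurons, and Dkk3, Sv2b and Neurod6 were not called against CA1. The gate genes themselves stood at 72.4 and 75.02 for Iyd, an iodotyrosine deiodinase (ENSMUSG00000019762, chromosome 10, 3540240 to 3554877), at 343 and 324 for Homer3, a postsynaptic scaffold protein (ENSMUSG00000003573, chromosome 8, 70282827 to 70294361), and at 3457 and 3479 for Slc17a7, the vesicular glutamate transporter of cortical excitatory neurons (ENSMUSG00000070570, chromosome 7, 45163949 to 45176142).

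**Figure D2:**
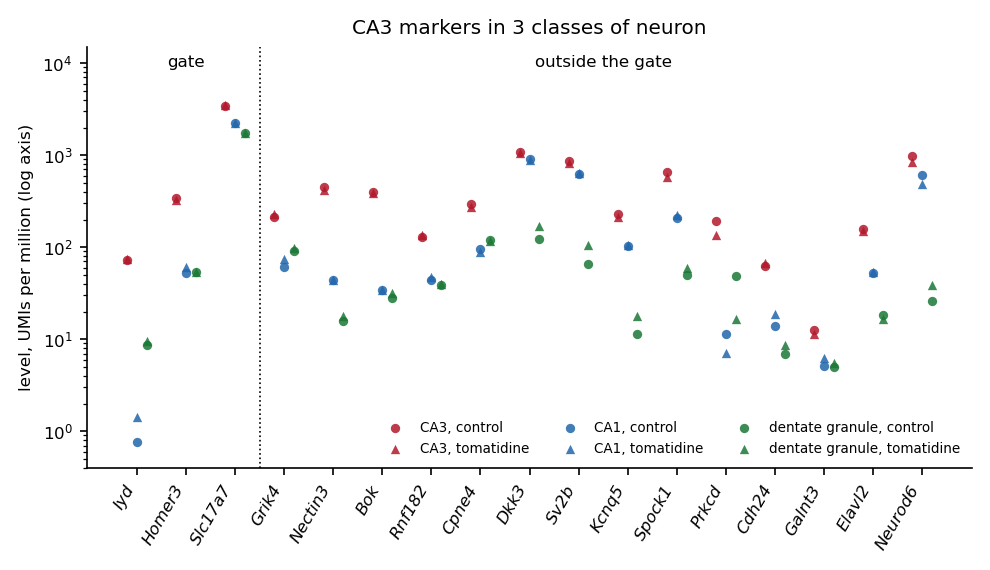
Level of the 3 genes that define CA3 in the gate (left of the dotted line) and of 14 CA3 markers outside it, in CPM on a log axis. Red, blue and green mark CA3, CA1 and dentate granule neurons, circles the control and triangles the tomatidine library; every red symbol lies above the blue and green symbols of its gene, with the smallest gap for Dkk3 against CA1 (1074 and 1068 against 916 and 898).

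RNA of other cell types is given as sums over the same genes in each class, without comparing genes. The 8 CA2 markers summed to 305 and 297 CPM in CA3 cells, 1056 and 912 in CA1, and 1250.4 and 1069 in dentate granule neurons. Pcp4 made 136 and 145 of the sum in CA3 cells, and Avpr1b, a CA2 vasopressin receptor, had 6 UMIs and 1 UMI there. Oligodendrocyte markers summed to 644 and 547 in CA3 cells, 1087 and 1334 in CA1. Glial, endothelial and choroid plexus markers together exceeded 1% of the UMIs in 6 control cells and 1 tomatidine cell. Endothelial markers summed to 2.66 and 42.9, mural and fibroblast markers to 7.32 and 64.1, and choroid plexus markers to 177 and 22.1. The last 3 sums differed between the libraries by far more than the CA3 markers did, whose 14 genes outside the gate summed to 5706 and 5357.

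More cells missed the Iyd minimum than the minimum density of Iyd and Homer3. Cells that met every other condition numbered 34 and 38 with 1 UMI of Iyd and 81 and 79 with none, against 24 and 29 cells just inside at 2 UMIs. The cells with 1 UMI carried Homer3 at 320 and 316 CPM and Nectin3 at 427 and 419, and those without Iyd carried Homer3 at 324 and 342 and Nectin3 at 343 and 410. Just inside, at 2 UMIs, Homer3 stood at 344 and 314 and Nectin3 at 475 and 419. Homer3 was part of the gate, so its level outside was partly set by the rule, while Nectin3 was lowest in the control cells without Iyd. The cells just outside were shallower than the CA3 cells as a whole, with medians of 25840 and 21471.5 UMIs at 1 UMI of Iyd. Cells just inside, at 2 UMIs of Iyd, were shallow as well, with medians of 24444.5 and 27241 UMIs. At the boundary of 1.5 UMIs of Iyd and Homer3 per 10000, 3 cells of each library stood just inside with Nectin3 at 257 and 245, and 9 and 2 cells just outside with Nectin3 at 95.9 and 137.

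To find what else set CA3 cells apart, UMIs were summed per library over CA3, CA1 and dentate granule neurons, which gave each class 2 sums. The sums were compared with edgeR, with the library as a term. The p-values therefore measure how far class differences varied between these 2 pooled libraries, and not the spread between mice. The libraries were also the treatment groups, so that variation includes any treatment effect that differed between classes. A gene was called at a Benjamini-Hochberg adjusted p of at most 0.05 and a log2 fold change of at least 1, and the 13 gate genes were left out. Fold changes and their medians include the TMM scaling of edgeR between sums. CPM values do not, so fold changes can differ from ratios of the CPM given beside them. Against CA1, 546 of 13982 genes tested were higher in CA3 (3.91%) and 1378 lower (9.86%). Against dentate granule neurons, 1129 were higher (8.07%) and 2208 lower (15.8%). Both comparisons together left 331 genes higher in CA3 than in either class and 931 lower.

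The abundant genes with the largest differences above both classes included a claudin, transcription and GTPase regulators and a potassium channel. Cldn22, a claudin, stood at 78.1 and 72.4 CPM in CA3, 0.723 and 1.06 in CA1, and 0.404 and 0.927 in dentate granule neurons, a log2 fold change of 6.64 over CA1 and 7.22 over dentate granule neurons. Trps1, a zinc finger repressor, stood at 205 and 231 in CA3, 17.2 and 18.2 in CA1, and 28.7 and 32.8 in dentate granule neurons. Both stood higher in CA3 in each library, with adjusted p in edgeR of 1.55e-06 and 1.54e-07 against CA1. The Ras-like GTPases Rasl11a and Rerg followed with log2 fold changes over CA1 of 3.54 and 3.98, and Rgs12, which shortens G protein signals, stood at 65.7 and 89.1 CPM in CA3 against 8.09 and 14.5 in CA1. Prkcd, protein kinase C delta, was higher by 4.39 over CA1 and 2.76 over dentate granule neurons. The axon guidance cue Slit2 and the potassium leak channel gene Kcnk4 were higher by 2.42 and 2.28 over CA1, and Ptgs2, the inducible cyclooxygenase COX-2, by 2.63 over CA1 and 2.27 over dentate granule neurons.

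The abundant genes that were lower in CA3 than in both classes included a release factor, a calcium buffer and a peptide precursor. Doc2b, a calcium sensor of spontaneous release, stood at 3.25 and 5.15 CPM in CA3, 132 and 122 in CA1, and 171 and 161 in dentate granule neurons, with log2 fold changes of -4.78 over CA1 and -5.04 over dentate granule neurons. Calb1, the calcium buffer calbindin, stood at 11.9 and 4.17 in CA3, 151 and 144 in CA1, and 281 and 254 in dentate granule neurons. Penk, the enkephalin precursor, stood at 12.8 and 4.54 in CA3, 193 and 164 in CA1, and 113 and 121 in dentate granule neurons. No CA3 value of these 3 genes reached the lowest value of the other classes, although 1 control cell held 45.5% of the Calb1 and another 48.7% of the Penk UMIs of control CA3 cells. Cnih3, an AMPA receptor partner, and Kcnk9, a potassium leak channel, had log2 fold changes over CA1 of -2.96 and -2.92, and the transcriptional repressors Bhlhe41 and Bcl6 of -2.75 each.

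**Figure D3:**
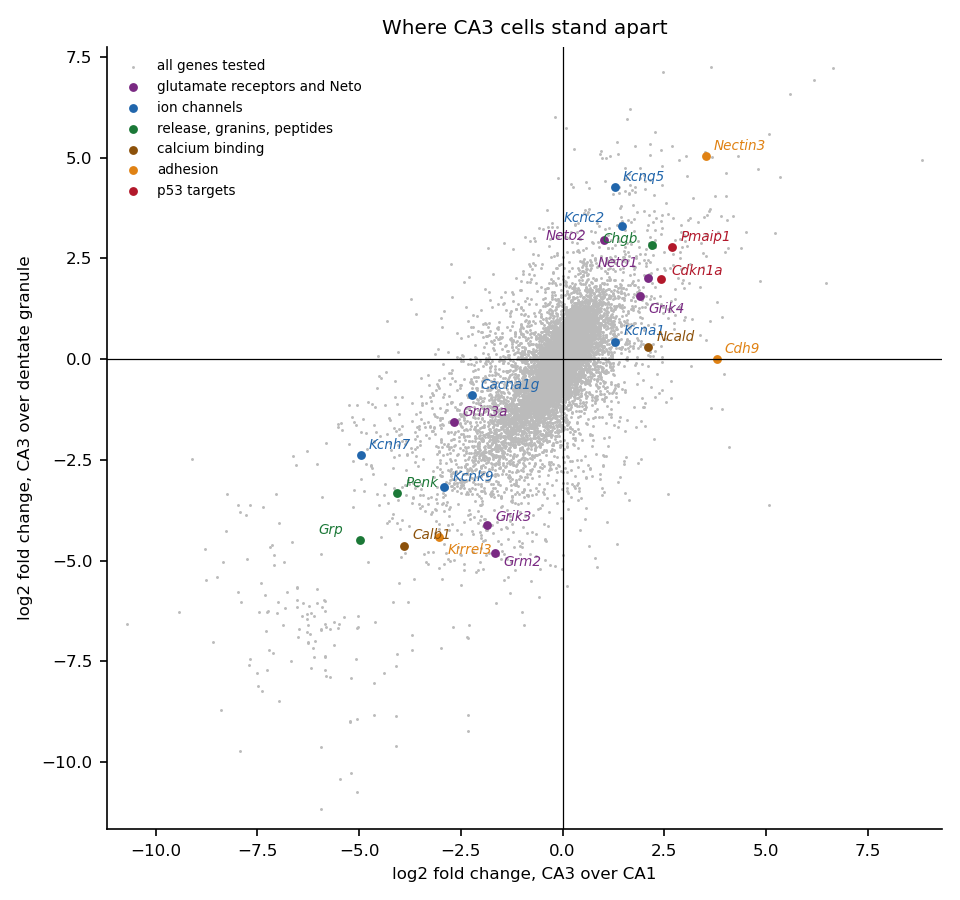
Log2 fold change of CA3 over CA1 (horizontal) and over dentate granule neurons (vertical) for the genes tested in edgeR (grey), with genes named in the text in colour by group. Nectin3 lies at 3.51 and 5.04, Cdkn1a at 2.42 and 1.99 and Calb1 at -3.90 and -4.63; genes near the horizontal line, such as Cdh9, differ from CA1 only.

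Kainate receptors, which mediate a slow current at the mossy fibre synapse, were called in both directions. Of 7 subunits and auxiliary proteins tested, 3 were higher and 2 lower than in CA1, and the same counts held against dentate granule neurons. These were 42.9% higher and 28.6% lower, beside 3.91% and 9.86% over all genes against CA1 and 8.07% and 15.8% against dentate granule neurons. Grik4, the high-affinity subunit KA1 (ENSMUSG00000032017, chromosome 9, 42518135 to 42944493), stood at 213 and 229 CPM in CA3, 61.3 and 74.6 in CA1, and 90.5 and 98.2 in dentate granule neurons, with log2 fold changes of 1.91 and 1.56. Its auxiliary protein Neto1 stood at 428 and 407 in CA3, 107 and 118 in CA1, and 125 and 134 in dentate granule neurons (2.09 and 2.02). CA3 values of both genes lay above all others. Neto2 was higher by 1.02 and 2.95, whereas the log2 fold changes were -1.86 and -4.11 for Grik3 and -1.47 and -1.55 for Grik1. The subunits Grik2 and Grik5 differed by less than the threshold.

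The main AMPA and NMDA receptor subunits showed no such split. None of 4 AMPA receptor subunits was called in either comparison, with a median log2 fold change of -0.38 over CA1 and -0.04 over dentate granule neurons, beside -0.04 and -0.06 over all genes tested. Of 7 NMDA receptor subunits 1 was called, Grin3a, which lowers calcium entry through the receptor, with log2 fold changes of -2.66 and -1.56. That single call made 14.3% of the list lower in each comparison, near the 9.86% and 15.8% over all genes. Of 7 metabotropic receptors, 1 was higher and 3 lower than in CA1 and 3 were lower than in dentate granule neurons, the lower calls making 42.9% of the list in each. Grm2, the presynaptic receptor of mossy fibres, was lower than in dentate granule neurons (9.24 and 7.36 against 311 and 289, log2 fold change -4.82). Of 12 GABA-A receptor subunits, 4 were lower than in CA1 (33.3%) and none higher, and 2 were lower (16.7%, near the 15.8% over all genes) and 1 higher (8.33%, near 8.07%) than in dentate granule neurons. Gabrd, of tonic extrasynaptic receptors, was lower than in dentate granule neurons (log2 fold change -3.95), and Gabra5 was higher (1.28).

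Ion channels of excitability were called in both directions. Of 34 tested, 5 were higher and 7 lower than in CA1, and 7 were higher and 5 lower than in dentate granule neurons, with medians of 0.01 and 0.43. The higher calls were 14.7% and 20.6% of the list, beside 3.91% and 8.07% over all genes, and the lower calls 20.6% and 14.7%, beside 9.86% and 15.8%, so that the share lower than in dentate granule neurons was near that of all genes. Kcnc2, a fast Kv3 channel of brief spikes, stood at 234 and 231 CPM in CA3, 93.7 and 102 in CA1, and 33.5 and 26.1 in dentate granule neurons. Kcnq5, a subunit of the M current, stood at 227 and 213 in CA3, 103 and 106 in CA1, and 11.4 and 18.1 in dentate granule neurons. These were the 2 channels of the list that were higher in CA3 than in both classes. Kcna1 and Kcnc1 were higher than in CA1 by 1.29 and 1.63, and so was the L-type calcium channel gene Cacna1c, at 223 and 239 against 105 and 127. Kcnh7, an Erg channel, was lower than in CA1 (2.66 and 5.39 against 135 and 138). The T-type calcium channel gene Cacna1g and the calcium-activated potassium channel gene Kcnn2 were lower as well, with log2 fold changes of -2.22 and -1.29.

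Of 28 vesicle release genes tested, 6 were higher and 6 lower than in CA1, and 13 were higher and 4 lower than in dentate granule neurons, with medians of 0.53 and 0.87. Higher calls were 21.4% and 46.4% of the list, beside 3.91% and 8.07% over all genes, and lower calls 21.4% and 14.3%, the first above 9.86% and the second near 15.8%. Snap25, a core membrane fusion protein, stood at 6124 and 5728 CPM in CA3, 2851 and 2841.0 in CA1, and 1929.6 and 1909.6 in dentate granule neurons. Syn2, which tethers vesicles, stood at 1715 and 1623 in CA3, 583 and 603 in CA1, and 572 and 552 in dentate granule neurons. Vamp1, Stx1a and Pclo were also higher than in both classes, by 1.54, 1.04 and 1.13 over CA1. The paralogues Syt2, Syn3, Unc13c and Sv2c were lower than in both, Sv2c with log2 fold changes of -1.58 and -4.87. Of 15 genes of mossy fibre contacts and adhesion, Nectin3 and Cdh9 were higher than in CA1 (Cdh9 at 130 and 129 against 11.1 and 10.5), and Kirrel3 and Homer2 were lower, while 3 were higher and 2 lower than in dentate granule neurons. The lower calls were 13.3% of that list in each comparison, near the shares over all genes. Cdh9, a cadherin shared by the partners of the mossy fibre synapse, stood at 163 and 165 in dentate granule neurons and was not called against them.

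Secreted peptides and granins were called in both directions. Of 19 tested, 4 were higher and 6 lower than in CA1, and 4 were higher and 6 lower than in dentate granule neurons. In each comparison this was 21.1% higher, beside 3.91% and 8.07% over all genes, and 31.6% lower, beside 9.86% and 15.8%. Chgb, a granin of dense-core vesicles, stood at 2845 and 2547 CPM in CA3, 680 and 664 in CA1, and 468 and 491 in dentate granule neurons, higher by 2.20 and 2.82. Nptx1, which clusters AMPA receptors, and Bdnf, the neurotrophin, were higher than in CA1 by 1.99 and 1.03, while Nptx2 was lower (-2.23). Beside Penk, the peptide genes Grp, Cartpt and Ntf3 were lower than in both classes, Grp with log2 fold changes of -4.98 and -4.49. Of 14 calcium-binding proteins, 1 was higher and 3 lower than in CA1, and 3 were higher and 1 lower than in dentate granule neurons. A single call was 7.14% of that list, near the share over all genes for higher than in CA1 and under it for lower than in dentate granule neurons, and 3 calls were 21.4%. Ncald was higher than in CA1 by 2.11, where Calb1, Necab1 and Necab2 were lower, and Hpca and Vsnl1 were higher than in dentate granule neurons by 2.30 and 1.86.

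Immediate early genes, which neurons switch on with activity, were counted against both classes. Of 24 tested, 2 were higher and 4 lower than in CA1, and 10 were higher and 3 lower than in dentate granule neurons. Higher calls were 8.33% and 41.7% of the list, beside 3.91% and 8.07% over all genes, and lower calls 16.7% and 12.5%, beside 9.86% and 15.8%. Nr4a3, a nuclear receptor, was the member called higher than in both, at 348 and 354 CPM in CA3, 162 and 135 in CA1, and 26.7 and 37.6 in dentate granule neurons. Arc stood at 135 and 109 in CA3, 261 and 188 in CA1, and 39.8 and 42.5 in dentate granule neurons, and Fos at 33.7 and 17.3, 42.8 and 27.3, and 15.9 and 15.4. Against CA1 neither was called. Jun was 1 of the 3 members lower than in dentate granule neurons (-2.69), a count under the share over all genes.

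No respiratory chain gene was called, while a few mitophagy genes were. None of 38 nuclear respiratory chain genes was called against either class, although their median log2 fold change was 0.26 over CA1 and 0.52 over dentate granule neurons. None of 13 mitochondrially encoded genes was called, with medians of -0.19 and -0.28. Of 21 mitophagy genes tested, 1 was higher than in CA1 (4.76%, beside 3.91% over all genes) and 4 were higher than in dentate granule neurons (19.05%, beside 8.07%), and none was lower. Optn, a mitophagy receptor, was higher than in both classes, by 1.49 and 2.43. Map1lc3a, an LC3 protein of autophagosomes, stood at 423 and 393 CPM in CA3 against 189.6 and 187 in dentate granule neurons, and the mitochondrial membrane proteins Fkbp8 and Bnip3 were higher than there by 1.09 and 1.14. Of 23 genes of the DNA damage response and the telomere, Tert, the telomerase reverse transcriptase, was lower than in both, at 1.58 and 1.35 CPM with log2 fold changes of -1.09 and -1.37, and none was higher. That call was 4.35% of the list, under the 9.86% and 15.8% of all genes called lower.

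Cdkn1a, the p21 gene (ENSMUSG00000023067, chromosome 17, 29090976 to 29100727), was higher in CA3 than in CA1 and dentate granule neurons. It stood at 20.1 CPM in control CA3 cells (242 UMIs; 95% Poisson interval 17.7 to 22.8) and 13.6 in tomatidine CA3 cells (111 UMIs; 11.2 to 16.4). The other neurons stood at 3.27 and 4.02 in CA1 and at 6.02 and 4.71 in dentate granule neurons, so no CA3 interval reached them. The log2 fold change was 2.42 over CA1 (adjusted p = 0.000123, edgeR) and 1.99 over dentate granule neurons (adjusted p = 0.000127), with Benjamini-Hochberg adjustment. By CPM, without TMM scaling, the log2 ratio to CA1 was 2.62 in the control library alone and 1.76 in the tomatidine library alone. The CPM ratio to dentate granule neurons was positive in each library and below 1.99 in both. Among the 29 p53 targets tested, which include Cdkn1a, 5 were higher and none lower than in CA1, and 5 were higher and 5 lower than in dentate granule neurons, with medians of -0.19 and -0.03. Higher calls made 17.2% of the list in either comparison, beside 3.91% and 8.07% over all genes, and the lower calls against dentate granule neurons were also 17.2%, near the 15.8% over all genes. Those higher than in both classes were Cdkn1a, Pmaip1, which encodes the cell death protein Noxa (4.74 and 4.41 CPM, by 2.69 and 2.78), and Phlda3, an Akt inhibitor (25.4 and 27.6, by 1.55 and 1.74). Mdm2, Bax and Ccng1, further p53 targets, were called in neither comparison. Astrocytes stood at 40.5 (31.5 to 51.1) and 16.5 CPM (11.7 to 22.6) of Cdkn1a, above CA3 cells in the control library and with overlapping intervals in the tomatidine library. The astrocyte class also carried endothelial markers at 1412 and 942 CPM and mural and fibroblast markers at 2778 and 3861, whose part in its Cdkn1a was not tested. Oligodendrocytes stood below CA3 cells, at 8.14 (6.44 to 10.2) and 7.88 (5.88 to 10.3).

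The Cdkn1a level varied with where the CA3 boundary was set. Cells that met all but the Iyd minimum stood at 8.04 and 11.0 CPM with 1 UMI of Iyd and at 4.51 and 7.81 with none, below the 20.1 and 13.6 inside. Cells just inside, at 2 UMIs, stood at 3.90 and 14.7. With the Iyd minimum removed, which gave 245 and 221 cells, Cdkn1a remained higher than in CA1 by 2.12 and than in dentate granule neurons by 1.69, and both calls held.

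Between the libraries, the ratio of Cdkn1a in CA3 cells, tomatidine over control, was -0.57 on the log2 scale (interval -0.90 to -0.24). In CA1 it was 0.30 (-0.07 to 0.67) and in dentate granule neurons -0.35 (-0.59 to -0.11). A UMI of Cdkn1a was found in 70 of 130 control cells (53.8%; exact binomial interval 44.9 to 62.6) and in 46 of 104 tomatidine cells (44.2%; 34.5 to 54.3). The shares differed by -9.62 percentage points, with a Newcombe interval of -22.0 to 3.23 that includes no difference. A share of positive cells depends on depth, so each cell was also reduced to a fixed number of UMIs. At 20000 UMIs, which left out 17 cells of each library, the expected shares were 27.6% and 22.8%, a difference of -4.76 points (-16.4 to 7.57). At 2000 UMIs they were 3.73% and 2.70%, against 0.790% and 0.722% in CA1, 0.908% and 0.886% in dentate granule neurons, and 1.37% and 1.12% in oligodendrocytes. The unreduced oligodendrocyte shares were 3.79% and 2.90%, at median depths of 5271 and 4738 UMIs.

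A few cells held much of the Cdkn1a RNA. Of the control cells, 60 had no UMI, 24 had 1, 30 had 2 to 4, and 16 had 5 or more, the highest 23 and 17. Of the tomatidine cells, 58 had none, 19 had 1, 24 had 2 to 4, and 3 had 5 or more, the highest 17 and 6. The cells with 5 or more held 58.3% of the control and 25.2% of the tomatidine Cdkn1a UMIs. By Iyd, which was part of the gate, the libraries stood at 12.8 and 14.5 CPM in cells with 2 or 3 UMIs of Iyd, 24.8 and 10.5 with 4 to 7, and 21.4 and 15.8 with 8 or more. By depth they stood at 9.89 and 12.4 under 30000 UMIs, 31.7 and 19.6 from there to under 100000, and 16.3 and 10.5 from 100000 UMIs. The part of cell depth and of Iyd in the difference was not tested.

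The relation of Cdkn1a to Fos rested in part on single cells. The CA3 cell with most Cdkn1a was the cell with most Fos in each library, with 23 Cdkn1a and 56 Fos UMIs in the control cell and 17 and 26 in the tomatidine cell. This was seen after the values were known, and the cells were then divided by Fos. The 13 control cells with 10 or more Fos UMIs stood at 46.3 CPM of Cdkn1a (37.0 to 57.2), against 15.2 (11.0 to 20.6) in 32 cells with 1 to 9 and 15.5 (12.8 to 18.6) in 85 cells with none. In the tomatidine library 5 such cells stood at 33.6 (21.3 to 50.5), 22 cells with 1 to 9 at 8.39 (4.89 to 13.4), and 77 cells with none at 13.0 (10.2 to 16.4). These groups include the cells that prompted the division. Without the cell with most Cdkn1a of each library, also left out after seeing the data, the Fos-rich cells stood at 35.2 (27.0 to 45.2) in 12 control cells and 14.1 (5.18 to 30.7) in 4 tomatidine cells, so that the tomatidine interval then included the level of the cells without Fos. Of the 16 control cells with 5 or more Cdkn1a UMIs, 8 had no Fos and 6 had 10 or more Fos UMIs, and of the 3 such tomatidine cells 2 had none and 1 had 10 or more. The median depths of the Fos-rich cells were 99730 and 85061 UMIs, against 87802 and 61629 in cells without Fos. Of other p53 targets, Mdm2 stood at 73.0 and 54.1 in the Fos-rich cells and 64.0 and 64.3 in those without Fos, Phlda3 at 29.96 and 55.6 against 24.6 and 25.2, and Pmaip1 at 4.36 and 0 against 3.37 and 4.22. Without the Fos-rich cells the difference in Cdkn1a between the libraries was -0.39 on the log2 scale (interval -0.78 to -0.0035). In CA1 neurons the Fos-rich cells stood at 2.35 in 52 control cells and 16.9 in 18 tomatidine cells (6.75 without the top cell). CA1 cells without Fos stood at 2.87 and 3.99. In dentate granule neurons the Fos-rich cells stood at 15.4 and 18.3 against 4.85 and 4.04 without Fos.

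**Figure D4:**
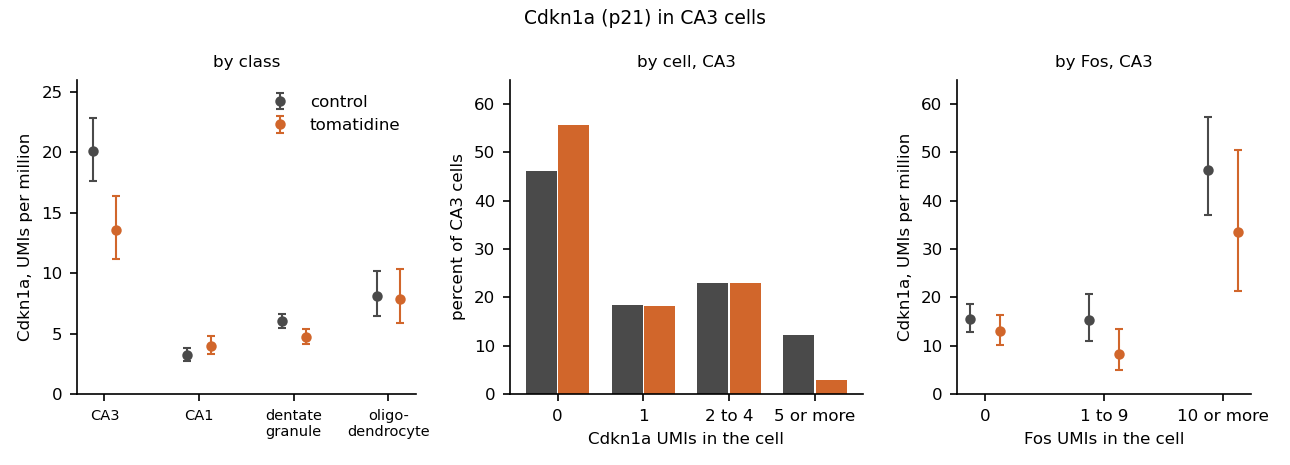
Cdkn1a in grey for the control and orange for the tomatidine library. Left, CPM by class with 95% Poisson intervals (20.1 and 13.6 in CA3); centre, percent of CA3 cells by their Cdkn1a UMIs (16 of 130 and 3 of 104 cells with 5 or more); right, CPM in CA3 cells by their Fos UMIs with 95% Poisson intervals (46.3 and 33.6 at 10 or more).

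Cdkn2a, the p16 gene (ENSMUSG00000044303, chromosome 4, 89274471 to 89294653), was barely captured. It gave 2 UMIs in each library, in 2 of 130 control cells (1.54%; 0.187 to 5.45) and 2 of 104 tomatidine cells (1.92%; 0.234 to 6.77). The difference of 0.385 points had an interval of -3.75 to 5.33. A difference between the groups was not detectable at this depth. Reduced to 2000 UMIs, the expected CA3 shares were 0.0199% (upper limit 2.84%) and 0.0556% (3.598%), beside 0.379% (0.138 to 0.828) and 0.438% (0.142 to 1.02) in oligodendrocytes. The CA3 shares lay below those of oligodendrocytes, with intervals that overlap, and are not read as expression; how much of the Cdkn2a RNA of either class was free RNA was not tested.

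Across all genes, most CA3 levels differed between the libraries by less than 0.5 on the log2 scale. Among the 10035 genes that reached 100 UMIs over both libraries, 274 stood higher with tomatidine by that fold or more (2.73%) and 101 lower (1.01%). With scaling by TMM factors the split was 208 and 122, with means over cells 423 and 257, and without the Iyd minimum 695 and 67. From 20 UMIs upward, 11858 genes were counted. The fold was passed upward by 812 of them (6.85%) and downward by 371 (3.13%), and their median was 0.04. The 14 CA3 markers outside the gate had a median of -0.08, with 11 lower and 3 higher, and 1 of them passed the fold, Prkcd. Of all 11858 genes, 4885 stood lower with tomatidine. For receptors and channels the medians were 0.16 for AMPA, 0.15 for kainate and -0.01 for NMDA receptor subunits, and 0.05 for 34 excitability channels.

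The genes furthest apart rested on few cells. Of the 20 genes with the highest and lowest ratios at 100 or more UMIs, 10 had over 50% of the UMIs of their higher library in 1 cell. Vtn, a pericyte gene, had 7 control and 323 tomatidine UMIs, of which 302 lay in 1 cell of 51624 UMIs. The same cell held 153 of 156 UMIs of Cldn5, 106 of 117 of Flt1 and all 13 of Cdh5, the markers of endothelial cells, and 153 of 168 of Pltp. Without the top cell of each library, Vtn stood at 0.502 and 2.59 CPM and Cldn5 at 0.423 and 0.370. Ttr, the transthyretin of the choroid plexus, had 1911 and 67 UMIs, with 1358 in 1 control cell. Without the cell with most of it in each library it stood at 46.7 and 5.79 CPM, and its log2 ratio was also negative in CA1 (-2.92) and dentate granule neurons (-1.65). One more cell, of the control library, was the top cell for Slc17a6, Tcf7l2, Rora, Calb1, Calb2 and Rgs16, with 142 of 224 UMIs of Tcf7l2, a thalamic marker, and 70 UMIs of Slc17a6, the transporter of subcortical excitatory neurons. A cell of the tomatidine library led in Adcyap1, Glp1r, Nmb, Csf2rb2, Rbpms2 and Sod3, of which Nmb and Csf2rb2 were on the list of mossy cell markers. The 7 genes of that list summed to 37.7 and 71.3 CPM. Of the 5 with at least 20 UMIs, 4 stood higher with tomatidine, with a median of 1.09. That median was 0.15 with the stricter gate and 2.00 without the Iyd minimum. Nmb had 36 and 223 UMIs, 199 of them in 4 tomatidine cells, and Csf2rb2 had 0 and 28, while Calb2, another mossy cell marker, was alike at 345 and 233 UMIs, with 324 in 4 control cells and 221 in 3 tomatidine cells. How far such cells were other cell types, pairs of cells or carried free RNA was not tested.

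Genes found in most CA3 cells give the comparison with less weight on single cells; this choice was made after the values were seen. Among 8352 genes found in at least 50% of the CA3 cells of both libraries, 57 stood above and 10 below by 0.5, 0.802% in all, and the median was 0.03. Timp2, an inhibitor of matrix metalloproteases, stood at 46.8 and 93.2 CPM and had the highest ratio, 0.99, with 0.47 in CA1 and 0.18 in dentate granule neurons. It was unevenly held all the same: 22 tomatidine cells with 10 or more UMIs held 89.1% of its UMIs and 14 control cells 67.3%, and it was found in 59 of 104 tomatidine and 78 of 130 control cells. Snhg11, a long non-coding RNA of neurons, stood at 323 and 541, higher by 0.74 (0.68 to 0.81), and was higher in CA1 and dentate granule neurons too, by 0.83 and 0.57. Its 3 intervals all lay above 0. Flna, an actin crosslinker, was higher by 0.84, with 0.46 in CA1 and 0.31 in dentate granule neurons. Astrocyte markers summed to 102 and 131 CPM in the same CA3 cells, endothelial markers to 2.66 and 42.9, and mural and fibroblast markers to 7.32 and 64.1. Satb1, a chromatin organizer, was higher by 0.77, against 0.06 and 0.20 in the other classes.

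On the lower side, Apod, an apolipoprotein of oligodendrocytes, stood at 145 and 76.9 CPM (-0.92), with 47.2% of its control UMIs in 1 cell, and oligodendrocyte markers summed to 644 and 547. Strip2, a component of the STRIPAK phosphatase complex, stood at 97.6 and 53.2, a ratio of -0.88 (-1.04 to -0.72) that was -0.92 without the cell holding most of it. Rora moved from -0.89 to -0.44 without that cell. Prkcd stood at 194 and 135, a ratio of -0.53 that was -0.41 without that cell, and it was negative in CA1 (-0.67) and dentate granule neurons (-1.52) as well. The ratio was -0.69 for Ppp1r1b, the phosphatase regulator DARPP-32 (-0.46 without that cell), -0.58 for Cotl1, an actin-binding protein, and -0.52 for Homer2, a postsynaptic scaffold protein.

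Senescence, stress and immune lists are set here against all 11858 genes with at least 20 UMIs. Of these, 6973 stood higher with tomatidine and 4885 lower, while 812 (6.85%) passed the fold of 0.5 upward and 371 (3.13%) downward. Of the p53 targets, 25 had at least 20 UMIs, 12 stood higher and 13 lower with tomatidine, and the median was -0.0047, with Cdkn1a the lowest. The 21 genes of the DNA damage response and telomere had a median of 0.01, the 22 ATF4 and integrated stress response genes -0.02, and the 21 mitophagy genes 0.01. Sqstm1, the autophagy receptor p62, stood at 308 and 236 CPM (-0.38; -0.46 to -0.30), the lowest ratio of the mitophagy list, and stood lower in CA1 (216 and 181) and dentate granule neurons (221 and 179) as well. Of 27 secreted factors of the senescence phenotype, 8 reached 20 UMIs, with a median of 0.19. Past the fold were 3 on the higher side (Cxcl12, Igfbp4 and Timp2) and 1 on the lower (Igfbp5), beside 6.85% and 3.13% over all genes. The list summed to 104 and 175 CPM, of which Timp2 made 46.8 and 93.2 and Cxcl12 1.498 and 22.6. Of the 184 tomatidine UMIs of Cxcl12, 93 lay in the cell that held most of the Vtn and Cldn5, and without the top cell of each library it stood at 1.09 and 11.2 CPM. Il6, Il1b, Cxcl2, Ccl2, Csf2, Mmp3, Mmp12 and Gdf15 had no UMI in any CA3 cell, which allows for each up to 3 UMIs in a library by the one-sided limit of 3 counts used for a count of 0. Of 16 interferon response genes 13 stood higher with tomatidine, with a median of 0.22 (0.22 in CA1 and 0.0077 in dentate granule neurons). All 5 past the fold were higher, beside 6.85% over all genes. They had between 8 and 40 UMIs in the control library (Ifit2, Ifit3, H2-K1, Psmb9 and Trim25 at 9, 15, 40, 19 and 8). All 13 mitochondrially encoded genes stood higher with tomatidine, from 0.01 for mt-Nd3 to 0.33 for mt-Co1, and 31 of 38 nuclear respiratory chain genes were lower, with a median of -0.07. Immediate early genes had a median of -0.04. Fos stood at 33.7 and 17.3 CPM (-0.96), with 82.5% of its control UMIs in 13 cells and 56.0% of its tomatidine UMIs in 5.

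CA3 cells varied among themselves mainly in genes held by few cells. Nectin3, which the gate did not use, ran per cell from 222 (10th percentile) over a median of 451 to 726 (90th percentile) CPM in the control library, and from 225 over 425 to 787 in the tomatidine library. Homer3, a gate gene, had medians of 331 and 332. Prkcd was spread more widely, absent from 14 and 17 cells, with a median of 118 and 113 and a 90th percentile of 515 and 391. Of 9619 genes with a mean of at least 0.5 UMI per cell, those with most spread beyond counting error in both libraries were Calb2, Sema3c, C4b, Mettl24, Pvalb and Ccn3. Calb2, the calcium buffer calretinin, was found in 18.5% and 13.5% of the cells. C4b, a complement component, had 360 and 245 UMIs, of which 138 and 93 lay in the top cell of each library. That cell also held most Mag, a myelin gene, in both libraries, with 110 of 402 and 98 of 233 UMIs. Npy, the neuropeptide, had 117 of its 173 control UMIs in 1 cell.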

How the data were processed

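The authors deposited, for each of the 2 libraries, whole UMI counts per gene and cell of 19059 genes, made with Cell Ranger (version 8.0.0 in the submitters' processing notes, 7.1.0 in the file header) against mm10. The counts were used as deposited. No cell annotation was used here. Scrublet (scanpy 1.11.5) called 0 control and 3 tomatidine doublets, too few to rely on, so the 2% of cells with the highest scores (327 and 336) were left out as an alternative. CA3, CA1 and dentate granule cells were gated on marker UMIs. UMIs summed per class and library were compared in edgeR 4.0.16 (R 4.3.3) by the quasi-likelihood test with TMM scaling, filterByExpr, class and library as terms and 2 residual degrees of freedom. DESeq2 1.42.0 was an alternative. On simulated counts for CA3 over CA1 (13876 genes), edgeR called 85% of genes changed by a log2 fold of 1, 100% at 1.5 and 0.0366% of unchanged genes. These calls used adjusted p alone. The simulation had the same dispersion for all genes and no library effect. It changed few genes, none of low level, equally in both directions. These rates therefore do not describe calls for genes of few UMIs or genes held by few cells. Intervals are exact binomial, Newcombe or Poisson at 95% and cover counting error only. Expected shares at fixed depths came from hypergeometric sampling (Python 3.11.15, scipy 1.17.1). Of 505 genes in 38 fixed lists, 497 were measured. The genes named were gate and list members, Cdkn1a and Cdkn2a, the 10 highest and 10 lowest ratios between the libraries at 100 or more UMIs, the 12 in each direction with the largest smaller-of-both class difference at 50 or more CPM, and the 12 most variable among CA3 cells. The members, lists and tests were chosen with earlier results of these data known. A gene counted in several lists appears under each. Some genes that the rule would name are not reported here.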

Additional observations from a re-analysis of the deposited data

Results flagged for a closer look

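Of the 20 genes with the most extreme tomatidine over control ratios in CA3 cells, 11 had the opposite sign in CA1 or dentate granule neurons. Both counting intervals lay away from 0. Each class was 1 sum per library, and the difference was not tested. The 20 genes were chosen for their CA3 ratios, and 10 of them had most UMIs of their higher library in 1 CA3 cell. The share of all genes with such opposite signs is not given, so the 11 are not read as responses specific to a class. On the log2 scale, Vtn stood at 6.09 in CA3 and -0.21 in dentate granule neurons, Cldn5 at 5.26 and -0.32, Flt1 at 3.97 and -0.66, Cxcl12 at 3.91 and -0.15, and Pltp at 3.20 and -0.43. In CA1 the ratio had the sign of CA3, with an interval above 0, for Cldn5 (0.85; 0.56 to 1.14), Cxcl12 (0.34; 0.10 to 0.58) and Pltp (0.49; 0.29 to 0.69), and it was 0.04 (-0.19 to 0.26) for Vtn and 0.30 (-0.01 to 0.59) for Flt1. The top cell for these 5 vascular and perivascular genes was the same tomatidine cell. Glp1r, the receptor of glucagon-like peptide 1, stood at 3.30 in CA3 and -1.39 in dentate granule neurons, and Adcyap1, the precursor of the peptide PACAP, at 4.43 in CA3 and -1.14 in CA1. In the remaining class Glp1r stood at 0.31 (-0.48 to 1.08) and Adcyap1 at 0.43 (0.20 to 0.66), the sign of CA3. Both led in another tomatidine cell, with 25 of 100 and 38 of 132 of their tomatidine UMIs. In the other direction, Pirt stood at -3.24 in CA3 and 0.66 in CA1, the serotonin-gated channel gene Htr3a at -2.66 and 1.91, Rgs16 at -2.03 and 0.88, and Rims3, a release-site protein, at -1.67 and 0.31. In dentate granule neurons Rgs16 had the sign of CA3 (-0.36; -0.55 to -0.17), while the intervals of Pirt (-0.01), Htr3a (-0.34) and Rims3 (0.02) included 0. One control cell held 91.4% of the control UMIs of Htr3a, another 54.1% of those of Rgs16, and 3 control cells 92.8% of those of Pirt.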

How the results depend on the processing

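Of the alternatives to values that answer a comparison, 97 gave counts within 1.5 times the main count, the same call, or values within the main counting interval, and 6 did not. Within the interval, direction was not always kept: the log2 ratio of the CA3 shares was 0.013 without cells of low complexity, and the difference in the Cdkn2a share, 0.385 points, was -1.35 with the stricter gate and -0.231 without the Iyd minimum. With cells over 6000 genes left out, 20 control and 21 tomatidine cells remained and the log2 ratio of the CA3 shares was 0.13 in place of -0.26. The 375 genes past a log2 fold of 0.5 numbered 145 of 1348 tested with that limit (70 higher and 75 lower; 375 of 10035 without it), 303 with the stricter gate (174 and 129), 762 without the Iyd minimum (added after seeing the data; 695 higher and 67 lower, against 274 and 101), 680 with means over cells, 1183 from 20 UMIs and 66 at a fold of 1. The limit left fewer cells and genes, the minimum of 20 UMIs admitted more genes and the fold of 1 was a stricter threshold; for the others the cause was not tested. Over 373 alternatives to list medians, 63 changed the sign of a median within 0.2 of 0, 15 of them under the 6000-gene limit, among them the secreted senescence factors and CA1 markers (-0.957 and -0.505). Oligodendrocyte markers, at -0.20, came to 0.54 without cells rich in RNA of other classes and 0.41 in deep cells. A median at least 0.2 from 0 changed sign in 16, as follows. Cortical and subicular markers came to -0.14 with the stricter gate, -0.060 under the 6000-gene limit, -0.34 without cells of low complexity and -0.15 with means over cells. Microglia markers came to -0.23, -0.36 and -0.12 under the first 3 of these, and to -0.010 in cells of 30000 or more UMIs. Neuropeptides and granins came to -0.066 and -0.11 with the stricter gate and the 6000-gene limit. Under that limit astrocyte markers came to -1.25 and interferon response genes to -0.31. OPC markers came to -2.91 with the stricter gate and -0.55 without cells of low complexity, mural and fibroblast markers to -0.73 with the stricter gate, and CA2 markers to 0.031 without the Iyd minimum. The cause of these reversals was not tested.

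The log2 ratio of Cdkn1a between the libraries, -0.57, ranged from -0.88 without cells of low complexity to -0.39 without Fos-rich cells. Under the 6000-gene limit it was -0.64 with an interval of -3.33 to 1.72, which includes no difference. The direction was not the same in every part of the CA3 cells. Cdkn1a stood higher with tomatidine at 2 or 3 UMIs of Iyd (12.8 and 14.5 CPM) and under 30000 UMIs (9.89 and 12.4). The intervals overlapped in both cases, and the other strata by Iyd and depth stood lower with tomatidine. Cells outside the gate with 1 or no UMI of Iyd also stood higher with tomatidine. The difference in the share of CA3 cells with Cdkn1a, -9.62 points, ranged from -11.8 without cells rich in RNA of other classes to -0.54 without cells of low complexity. Cdkn1a over CA1 was called in each alternative with a test, at 2.12 to 2.62, with adjusted p in edgeR and DESeq2 from 7.30e-16 to 0.00066, and over dentate granule neurons at 1.68 to 2.18. With 1 library left out no test remained, and the values were 1.76 and 2.62 over CA1 and 1.53 and 1.74 over dentate granule neurons. The alternatives without the Iyd minimum, of low complexity, of deep cells, of the top Cdkn1a cell, of Fos and of 20000 UMIs were chosen after seeing the data. No paired analysis was possible because each group had 1 library.

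The precision of the CA3 shares was set by 130 and 104 cells, and that of Cdkn2a by 2 UMIs a library. Cell classes rest on marker gates, mice were pooled, and 6 symbols occurred more than once among the genes.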

Other observations

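Further lists were compared between CA3 and the other classes in edgeR, beside shares over all genes of 3.91% higher and 9.86% lower than in CA1 and of 8.07% higher and 15.8% lower than in dentate granule neurons. Of 12 glucocorticoid response genes tested, 2 were higher and 2 lower than in CA1, and 1 was higher and 1 lower than in dentate granule neurons, the latter near or under the shares over all genes. Hsd11b1, which regenerates active glucocorticoid in cells, stood at 26.1 and 30.6 CPM in CA3, 12.8 and 13.1 in CA1, and 12.6 and 16.2 in dentate granule neurons, while Nr3c1, the glucocorticoid receptor, stood at 34.1 and 37.3 in CA3 against 86.7 and 84.0 in CA1. Of 14 secreted factors of the senescence phenotype tested, 5 were lower and none higher than in CA1, and 7 were lower and 2 higher than in dentate granule neurons. Igfbp4, a binding protein of insulin-like growth factors, stood at 6.99 and 11.3 in CA3 and 286 and 228 in CA1, and Igfbp5 at 13.1 and 8.09 in CA3 and 277 and 278 in dentate granule neurons. Timp2, which stood higher with tomatidine in CA3, was lower in CA3 than in CA1 in both libraries, at 46.8 and 93.2 against 227 and 313.

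The stress and interferon counts lay near or under the shares over all genes in most directions. Of 26 ATF4 and integrated stress response genes, 1 was higher and 1 lower than in CA1, and 5 were lower than in dentate granule neurons, among them Cebpb, a transcription factor, at 29.0 and 30.3 against 131 and 122. Of 24 interferon response genes, 1 was higher and 2 lower than in CA1, and 1 was higher and 3 lower than in dentate granule neurons: Irf1, an interferon regulatory factor, was higher than in CA1 (11.2 and 11.5 against 3.03 and 4.02) and Ifi27 higher than in dentate granule neurons (69.98 and 74.0 against 31.7 and 27.7). Of 9 cell cycle inhibitors tested, Cdkn1a was higher than in both classes, 1 was lower than in CA1 and 3 were lower than in dentate granule neurons (33.3% of the list). Cdkn1c, the p57 gene, was lower than in both, at 0.333 and 0.245 CPM. Cdkn2c and Rbl1 were lower than in dentate granule neurons by log2 fold changes of -2.15 and -1.47, at under 1 CPM in CA3. The calls of these 3 genes rest on few UMIs in CA3 cells, with none of Cdkn2c in the control library. All 8 CA2 markers were lower in CA3 than in CA1, with Rgs14, a regulator of G protein signals, at 33.3 and 24.3 against 245 and 233, and 1 was higher and 5 lower than in dentate granule neurons. Of 7 mossy cell markers tested, Drd2 was higher than in both other classes, at 2.41 and 5.15 CPM, with 22 of its 29 control UMIs in 1 cell. Calb2 was called higher than in dentate granule neurons, at 28.7 and 28.6 CPM in CA3 against 24.7 and 9.64. Without the top cell of each library Calb2 stood at 13.2 and 16.5 in CA3, the first below the control dentate granule level. Calcrl was lower than in CA1 by a log2 fold change of -1.19.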
